A study of Mus musculus with 2 samples.

Results

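Genes for splicing factors and RNA-binding proteins were examined for peaks of CUT&Tag with a Rac1 antibody in mouse retina. The members were all peaks whose assigned gene has a symbol starting with Srsf, Hnrnp, Rbm, Sf3a, Sf3b, U2af, Snrnp, Prpf, Ddx or Dhx (for Srsf, Rbm, Ddx and Dhx followed by a digit), pseudogene symbols left out. This gave 53 of the 4789 peaks of both lists, 16 of 1711 in the COH list and 37 of 3078 in the control list, on 40 of 154 protein-coding genes that carry such a name in RefSeq. The COH retina was that of wild-type C57BL/6 mice 7 weeks old with chronic ocular hypertension (COH) for 1 week, a glaucoma model in which raised eye pressure damages ganglion cell axons. The other was the retina of untreated wild-type C57BL/6 mice of the same age, called control. The stated purpose was to look for genes and transcription factors tied to Rac1, a small GTPase. Each group was 1 library of whole-retina nuclei, so no difference between the conditions was tested. All printed intervals are exact 95% Clopper-Pearson intervals that cover counting error only.

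Splicing removes introns from transcripts in the spliceosome, which is built from small nuclear ribonucleoproteins (snRNPs) and many proteins that join and leave in order. SR proteins bind exonic enhancers and help splice sites to be used, hnRNPs coat nascent RNA and often oppose them, and RBM proteins carry RNA recognition motifs and serve many steps of RNA life. DEAD-box and DEAH-box helicases rearrange RNA and RNA-protein complexes in splicing, ribosome assembly and translation. Retinal neurons depend on splicing, and in humans dominant mutations of several spliceosome genes cause retinitis pigmentosa. CUT&Tag marks chromatin near an antibody by inserting adapters there with Tn5, so a peak lies on DNA at a gene and measures neither its RNA nor its splicing.

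The promoters of 8 members are shown because their peaks at the transcription start site (TSS) overlapped between the COH and control lists. They are the members with the highest product of both folds, at most 2 per class, that have an entry in the RefSeq table (GRCm38.p6). Each runs 5′ to 3′ on the gene's strand from 250 bases before the start to 50 after it, so that the start is base 251. Capitals mark matches, on either strand, of the motifs GGGCGG (the core of the GC box of Sp1-family factors), CCAAT (the NF-Y motif), TATAAA (the TATA box), GCATGCGC (part of the NRF1 motif), CCGGAA (the ETS core), TGACGT (part of the cAMP response element), CACGTG (an E-box) and TCTCGCG, and matches of different motifs can overlap.
Srsf7: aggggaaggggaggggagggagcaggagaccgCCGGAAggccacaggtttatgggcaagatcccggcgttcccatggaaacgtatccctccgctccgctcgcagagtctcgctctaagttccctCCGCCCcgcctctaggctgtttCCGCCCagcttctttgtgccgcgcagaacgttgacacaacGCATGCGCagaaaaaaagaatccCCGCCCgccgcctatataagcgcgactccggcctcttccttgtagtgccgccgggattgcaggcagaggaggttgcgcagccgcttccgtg
Hnrnph3: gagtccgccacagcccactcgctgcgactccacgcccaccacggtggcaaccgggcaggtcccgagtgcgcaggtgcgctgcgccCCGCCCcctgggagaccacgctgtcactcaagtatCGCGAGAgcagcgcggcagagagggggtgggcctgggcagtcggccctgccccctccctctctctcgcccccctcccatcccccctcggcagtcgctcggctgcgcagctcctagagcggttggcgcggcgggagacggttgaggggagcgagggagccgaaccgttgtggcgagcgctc
Hnrnpd: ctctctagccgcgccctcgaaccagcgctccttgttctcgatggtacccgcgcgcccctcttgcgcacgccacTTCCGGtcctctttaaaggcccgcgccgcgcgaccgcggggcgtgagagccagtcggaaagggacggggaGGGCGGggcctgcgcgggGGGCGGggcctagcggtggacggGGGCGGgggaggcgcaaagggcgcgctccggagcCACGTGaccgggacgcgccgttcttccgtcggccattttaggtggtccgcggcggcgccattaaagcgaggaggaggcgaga
Rbm39: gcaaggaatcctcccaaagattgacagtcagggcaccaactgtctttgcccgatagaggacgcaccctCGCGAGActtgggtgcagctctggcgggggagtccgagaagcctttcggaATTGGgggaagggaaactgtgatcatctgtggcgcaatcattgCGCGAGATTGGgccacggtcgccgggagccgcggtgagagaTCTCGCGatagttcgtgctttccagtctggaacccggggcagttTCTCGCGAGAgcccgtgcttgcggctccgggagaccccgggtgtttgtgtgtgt
Prpf40b: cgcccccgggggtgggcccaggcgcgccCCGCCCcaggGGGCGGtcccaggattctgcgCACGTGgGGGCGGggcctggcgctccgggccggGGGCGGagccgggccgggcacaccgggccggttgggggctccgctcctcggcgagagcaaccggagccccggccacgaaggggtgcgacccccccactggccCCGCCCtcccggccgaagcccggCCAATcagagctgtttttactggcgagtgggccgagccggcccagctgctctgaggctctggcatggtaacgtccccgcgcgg
Snrnp70: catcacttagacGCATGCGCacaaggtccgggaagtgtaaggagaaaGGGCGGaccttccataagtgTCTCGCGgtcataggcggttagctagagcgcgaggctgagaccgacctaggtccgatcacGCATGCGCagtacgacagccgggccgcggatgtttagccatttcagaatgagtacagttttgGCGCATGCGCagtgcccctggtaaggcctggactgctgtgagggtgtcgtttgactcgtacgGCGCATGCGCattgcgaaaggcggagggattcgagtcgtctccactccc
Ddx5: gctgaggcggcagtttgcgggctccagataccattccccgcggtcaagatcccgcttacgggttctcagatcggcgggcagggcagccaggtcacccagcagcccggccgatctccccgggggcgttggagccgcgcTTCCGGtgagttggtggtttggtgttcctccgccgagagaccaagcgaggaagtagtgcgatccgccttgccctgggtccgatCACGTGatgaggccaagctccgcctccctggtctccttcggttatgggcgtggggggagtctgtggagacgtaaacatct
Ddx54: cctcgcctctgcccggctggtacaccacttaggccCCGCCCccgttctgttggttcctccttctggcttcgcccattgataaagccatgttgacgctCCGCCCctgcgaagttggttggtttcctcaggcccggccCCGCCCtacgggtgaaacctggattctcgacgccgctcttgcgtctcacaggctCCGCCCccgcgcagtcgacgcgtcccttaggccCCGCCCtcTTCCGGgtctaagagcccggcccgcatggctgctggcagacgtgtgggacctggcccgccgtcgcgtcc

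These windows lie at chr17:80207256-80207555 (Srsf7), chr10:63023800-63024099 (Hnrnph3), chr5:99978889-99979188 (Hnrnpd), chr2:156180189-156180488 (Rbm39) and chr7:45395693-45395992 (Snrnp70), all on the minus strand of GRCm38.p6. The Ddx5 window, taken at the second of its start sites, the nearest to its control summit, lies at chr11:106788858-106789157 on the minus strand, and those of Prpf40b (chr15:99294991-99295290) and Ddx54 (chr5:120612880-120613179) lie on the plus strand. The build of the peak coordinates could not be settled. While mm9 is named in the submitters' processing notes, the lists' gene starts lay within 100 bp of GRCm38.p6 for 2 of the 40 members, so positions in the 2 systems must not be compared. The length from start to gene end differed by at most 2 bp between RefSeq and the lists for 5 of the 8 (Ddx5, Hnrnpd, Rbm39, Snrnp70 and Srsf7), and by up to 391 bp for the others.

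With all classes pooled, more member genes carried a peak than protein-coding genes at large, in both lists. In the COH list 16 of 154 (10.4%, 6.06 to 16.3) had a peak, beside 5.38% of 21900 protein-coding genes. In the control list 36 of 154 (23.4%, 16.9 to 30.9) had a peak, beside 10.8%. Not every class stood above these shares. In COH 5.26% of RBM genes and 6.25% of spliceosome subunit genes had a peak, close to the 5.38%. Both lists named 12 members (7.79%, 4.09 to 13.2), beside 3.53%, and 114 members had no peak in either. Counting peaks within 1000 bp of the TSS only, 15 members had a COH peak, beside 3.80% of all genes, and 28 a control peak, beside 8.37%. Sites below the threshold of the peak caller are missing from the lists, so the absence of a peak does not show absence of binding.

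**Figure D1:**
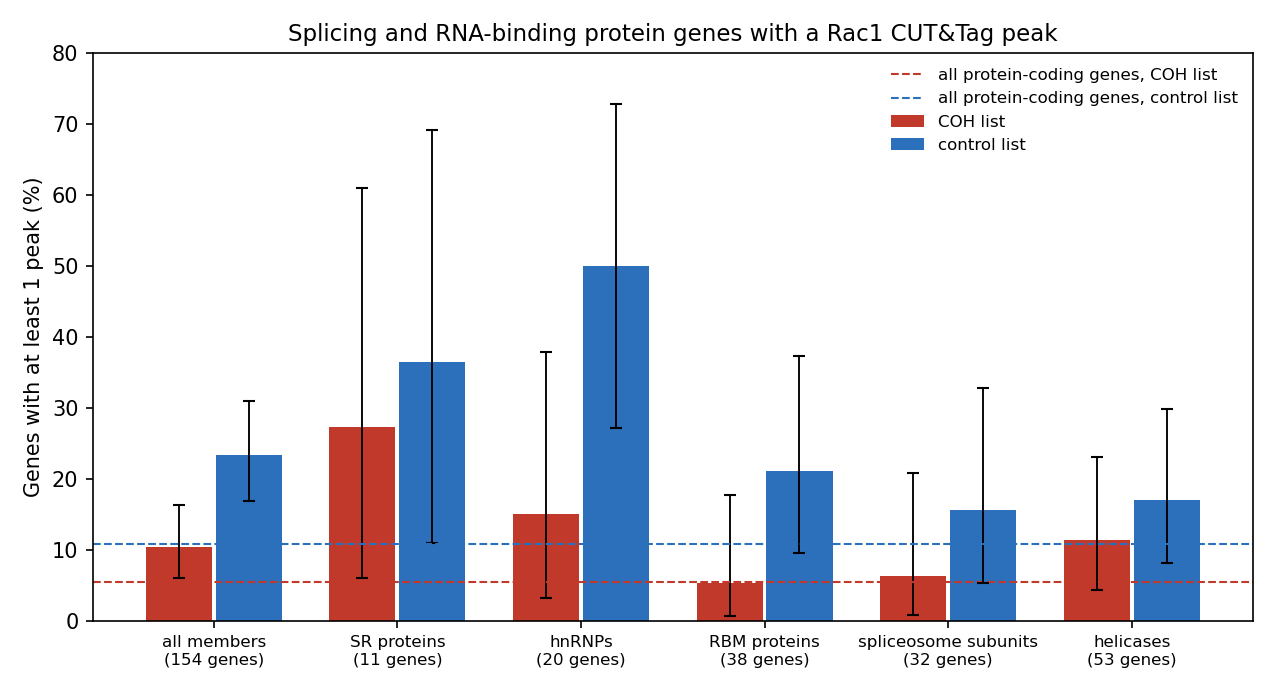
Percent of the genes of each class with at least 1 peak in the COH list (left bars) and the control list (right bars), with exact 95% binomial intervals; dashed lines give the share of all protein-coding genes, 5.38% for COH and 10.8% for control. The hnRNPs have the tallest control bar (50%), and the interval of that bar lies above the control line.

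Most COH member genes were also in the longer control list. Of the 16 members with a COH peak, 12 (75.0%, 47.6 to 92.7) also had a control peak, beside 65.5% of all protein-coding genes with a COH peak. Of the 36 in the control list, 12 (33.3%, 18.6 to 51.0) were in the COH list too, beside 32.7%. By position, 12 of 16 COH member peaks shared 1 bp or more with a control peak, beside 61.8% of the COH list. In the other direction 11 of 37 control member peaks (29.7%, 15.9 to 47.0) overlapped a COH peak, beside 34.3% of the control list. In nuclei from a whole retina, a change in the mix of cells and a change of binding within cells cannot be told apart.

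Most member peaks lay at gene starts. In COH 15 of 16 (93.8%, 69.8 to 99.8) lay within 1000 bp of the TSS, beside 51.1% of all COH peaks, and in control 28 of 37 (75.7%, 58.8 to 88.2), beside 61.6%. The control interval includes the 61.6% of the whole list. By the authors' annotation 11 COH member peaks (68.8%) were in promoters, beside 40.6% of all COH peaks, and 23 control member peaks (62.2%), beside 46.9% of all control peaks. In 5′ UTRs lay 5 COH member peaks (31.2%), beside 11.6% of all, and 9 control member peaks (24.3%), beside 17.4%. The other 5 control peaks were in introns (3), an exon (1) and intergenic DNA (1). Their strength was moderate in both lists. The fold enrichment over the caller's background, a score of each peak within its own list, had a median of 5.99 (range 3.68 to 8.27) for COH members, beside 5.45 for all COH peaks. For control members it was 5.25 (4.12 to 7.87), beside 5.24. A -log10 q of at least 5 was reached by 10 of 16 COH member peaks (62.5%), beside 60.8% of all, and by 25 of 37 control member peaks (67.6%), beside 63.2%. Near the TSS the medians were 6.03 for COH members, beside 5.33 for all such COH peaks, and 5.96 for control members, beside 5.18. No member peak lay in a window of 100 kb with 5 or more peaks.

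**Figure D2:**
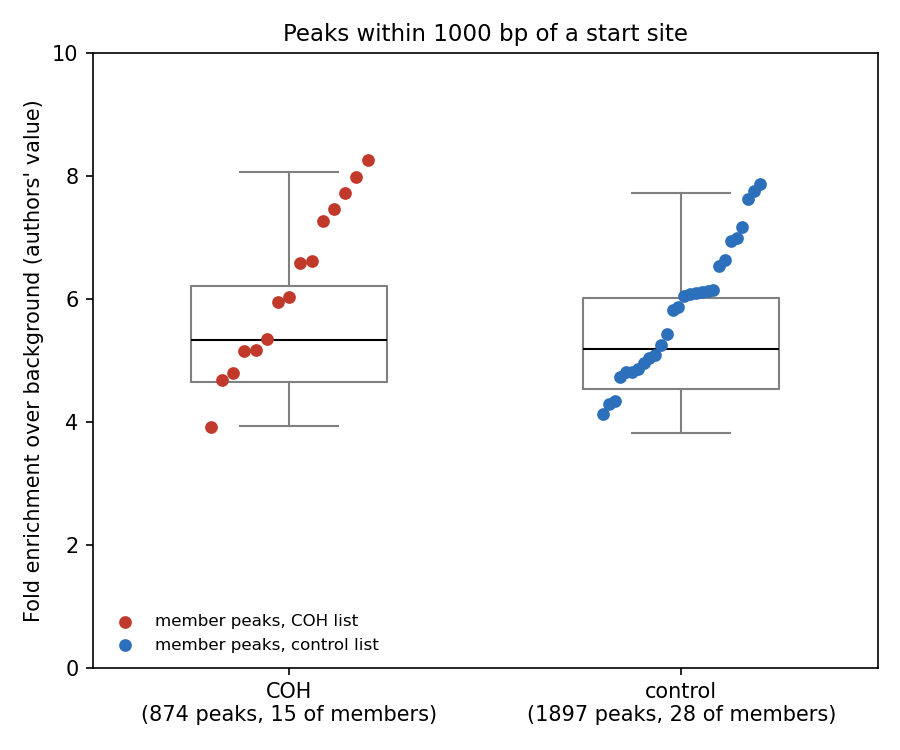
Fold enrichment, as the authors' peak caller gave it, of peaks within 1000 bp of a TSS in COH (left) and control (right); points are member peaks in rising order, boxes show the quartiles and median of all such peaks, and whiskers the 5th and 95th percentiles. Member peaks run from 3.92 to 8.27 in COH and from 4.12 to 7.87 in control, and the Hnrnph3 peak stands at percentile 96.0 of all such COH peaks.

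Of the SR protein genes, 3 of 11 (27.3%, 6.02 to 61.0) had a COH peak and 4 of 11 (36.4%, 10.9 to 69.2) a control peak, and 3 had both. The shares over all protein-coding genes were 5.38%, 10.8% and 3.53%. Srsf7 encodes an SR protein with a zinc knuckle that also acts in mRNA export. Its promoter peak had a fold of 5.15 at a pileup (the fragment depth the caller gives for a peak) of 13 in COH, and a fold of 4.73 at a pileup of 18 in control. The 2 peaks, at 80514426 to 80514965 and 80514371 to 80514751 on chromosome 17 of the lists, overlapped by 326 bp. Srsf1 encodes a regulator of 5′ splice site choice. Its COH peak had a fold of 5.34 at a pileup of 11 and spanned -89 to 231 bp from the TSS. The control peak had a fold of 5.09 at a pileup of 13 and spanned 377 to 972 bp. These Srsf1 peaks did not overlap, and 146 bp lay between them. Srsf2, whose protein SC35 marks nuclear speckles, had a peak in control only, with a fold of 6.11 at a pileup of 22. That peak, 923 bp long, was the longest of any member and reached from -840 to 81 bp.

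The third SR gene in both lists was named through a peak that was not at its start. Srsf12 encodes an SR protein that can repress splicing. Its peaks lay 39220 bp downstream of the TSS in COH, with a fold of 3.68 at a pileup of 11, and 38717 bp downstream in control, with a fold of 5.44 at a pileup of 27. Both were annotated as 5′ UTR and lay beyond the end of Srsf12. The next protein-coding gene in the RefSeq order is Pnrc1, a nuclear receptor coregulator. Without Srsf12, 2 SR genes had a COH peak at the TSS and 3 a control peak. The members without a peak in either list were Srsf3, Srsf4, Srsf5, Srsf6, Srsf9, Srsf10 and Srsf11.

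The hnRNP genes had the highest share of any class in control. A COH peak was assigned to 3 of 20 (15.0%, 3.21 to 37.9) and a control peak to 10 of 20 (50%, 27.2 to 72.8), and all 3 COH genes were in both lists. Among all protein-coding genes 5.38% had a COH peak and 10.8% a control peak. Hnrnph3, a binder of G-rich sequence, had the highest fold of any COH member. Its promoter peak had a fold of 8.27 at a pileup of 34 in COH, rank 214 of 1711, and a fold of 7.17 at a pileup of 33 in control, rank 453 of 3078. The pair, at 62859462 to 62860295 and 62859228 to 62860012 on chromosome 10 of the lists, overlapped by 551 bp. Hnrnpll, the regulator of Cd45 exon choice in lymphocytes, had a 5′ UTR peak with a fold of 6.61 at a pileup of 18 in COH, and of 5.03 at a pileup of 17 in control. Hnrnpd encodes AUF1, which binds AU-rich elements of unstable mRNAs. Its peaks lay wholly upstream of the TSS in both lists, with a fold of 4.68 at a pileup of 13 in COH, and of 4.82 at a pileup of 15 in control. The starts of Hnrnpll and Srsf7 lie 145 kb apart on chromosome 17, and both genes had overlapping peaks.

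The other 7 hnRNP genes had a control peak and no COH peak. Thus 3 of 10 hnRNP genes with a control peak were also in the COH list, beside 32.7% of all protein-coding genes with a control peak. The highest folds among them were those of Hnrnpr (pileup 19, fold 6.10), Hnrnpa0 (pileup 24, fold 6.05) and Hnrnph1 (pileup 21, fold 5.87). Hnrnpr acts in axonal mRNA transport in motor neurons, Hnrnpa0 binds AU-rich elements, and Hnrnph1 binds G-runs near splice sites. Hnrnpc (4.96), which shields cryptic splice sites in Alu and other U-rich sequence in human cells, and Hnrnpul2 (4.82) had promoter peaks of lower fold. Hnrnpf and Hnrnpl had 5′ UTR peaks farther downstream. That of Hnrnpf, a paralog of Hnrnph1, spanned 6420 to 6865 bp from the TSS (pileup 17, fold 4.63), and the RefSeq table has a start 6442 bp into the gene. That of Hnrnpl, which binds CA repeats, spanned 2029 to 2336 bp (pileup 24, fold 4.28), and the RefSeq table has its start 2344 bp into the gene. Hnrnpa1, Hnrnpa2b1, Hnrnpk, Hnrnpm and Hnrnpu were among the 10 hnRNP genes with no peak assigned.

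Among RBM genes, 2 of 38 (5.26%, 0.644 to 17.7) had a COH peak and 8 of 38 (21.1%, 9.55 to 37.3) a control peak. Both intervals include the shares over all protein-coding genes, 5.38% in COH and 10.8% in control. Rbm39, a U2AF-related splicing factor and coactivator, was the gene in both lists. Its promoter peak had a fold of 6.03 at a pileup of 19 in COH, and a fold of 6.13 at a pileup of 24 in control. The COH peak, at 156021949 to 156022378 on chromosome 2 of the lists, lay wholly inside the control peak at 156021668 to 156022516. Rbm17, which encodes the U2-associated factor SPF45, had a peak in COH only, in the 5′ UTR from 822 to 1171 bp, with a fold of 5.95 at a pileup of 15. The nearest control peak lay 174698 bp away and was assigned to Ankrd16.

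The control list alone held 7 RBM genes. Of the 8 with a control peak, 1 was also in the COH list, beside 32.7% of all protein-coding genes with a control peak. Rbm48, a factor for splicing of minor introns, had the highest fold (6.99, pileup 22) and was followed by Rbm12b2 (6.08, pileup 16) and Rbm5 (5.82, pileup 16), a regulator of exon choice in apoptosis genes. Rbm45, an RNA-binding protein of neural development, had a 5′ UTR peak with a fold of 4.34 at a pileup of 11. Rbm15, which recruits the m6A writer complex, had a promoter peak with a fold of 4.28 at a pileup of 17. The remaining peaks lay off the start. That of Rbm12b1 was at -2919 bp (fold 4.81, pileup 16), and that of Rbm4b was at -21699 bp (fold 4.87, pileup 14). Rbm12b1 and Rbm12b2 are adjacent copies, and reads from such copies may not be told apart. The same holds for Rbm4b with Rbm4, which had no peak.

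Of the spliceosome subunit genes 2 of 32 (6.25%, 0.766 to 20.8) had a COH peak and 5 of 32 (15.6%, 5.28 to 32.8) a control peak. Here too the intervals include the shares over all protein-coding genes, 5.38% in COH and 10.8% in control. Prpf40b encodes a U1 snRNP-associated protein that bridges the splice sites. It had the closest pair of summits, 8 bp apart, with a fold of 6.58 at a pileup of 20 in COH, and a fold of 6.54 at a pileup of 21 in control. The peaks, at 99192848 to 99193268 and 99192901 to 99193286 on chromosome 15 of the lists, shared 368 bp. Snrnp70 encodes U1-70K, the U1 snRNP protein that contacts SR proteins. Its peak had a fold of 5.17 at a pileup of 16 in COH, and a fold of 6.15 at a pileup of 23 in control. The Snrnp70 peaks overlapped by 608 bp, the widest overlap of any pair of members.

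U2af2, which encodes the large subunit of the polypyrimidine tract factor U2AF, had a control peak at -598 bp with the lowest fold of any control member (4.12) and a pileup of 25. The control peak of Prpf18 (fold 5.01, pileup 10), a factor of the second splicing step, was far from its start, at -13194 bp in intergenic DNA. All 9 genes of the SF3a and SF3b complexes of the U2 snRNP, Sf3b1 among them, had no peak in either list, beside 5.38% of all genes in COH and 10.8% in control, at which so few genes would often have none. Neither had the 6 genes whose human forms cause dominant retinitis pigmentosa, Prpf3, Prpf4, Prpf6, Prpf8, Prpf31 and Snrnp200, a group named here after its values had been seen and too small to read against the same shares. Of the 13 Prpf genes 1 had a COH peak and 3 a control peak, and of the 7 Snrnp genes 1 had a peak in each list.

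The helicase genes had 6 of 53 members (11.3%, 4.27 to 23.0) with a COH peak and 9 of 53 (17.0%, 8.07 to 29.8) with a control peak, and 3 had both. Both intervals include the shares over all protein-coding genes, 5.38% in COH and 10.8% in control. All 6 COH peaks were of DEAD-box genes, of which there are 37. DEAH-box genes had a COH peak for 0 of 16, beside 5.38% of all genes, and a control peak for 2, beside 10.8%. Whether these subfamilies differ was not tested.

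Ddx5 encodes p68, a coregulator of transcription and splicing. Its peak had a fold of 7.26 at a pileup of 23 in COH, and a fold of 7.87 at a pileup of 36 in control, the highest fold of any control member. The summits were 16 bp apart and lay 292 bp (COH) and 308 bp (control) into the gene, and the RefSeq table has the second of its 3 start sites 278 bp into the gene. Ddx54, a nucleolar helicase, had the highest pileup of any member in both lists, 40 with a fold of 7.98 in COH and 44 with a fold of 6.94 in control. Its COH peak, at 120750647 to 120751012 on chromosome 5 of the lists, lay inside the control peak at 120750495 to 120751369. Ddx20 encodes Gemin3, a part of the SMN complex that assembles snRNPs. Its promoter peak had a fold of 4.80 at a pileup of 13 in COH, and a fold of 6.64 at a pileup of 20 in control. A second control peak assigned to Ddx20, with a fold of 4.45 at a pileup of 12, lay 97149 bp from its TSS in an intron of Kcnd3, and Ddx20 was the member with more than 1 peak in a list.

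**Figure D3:**
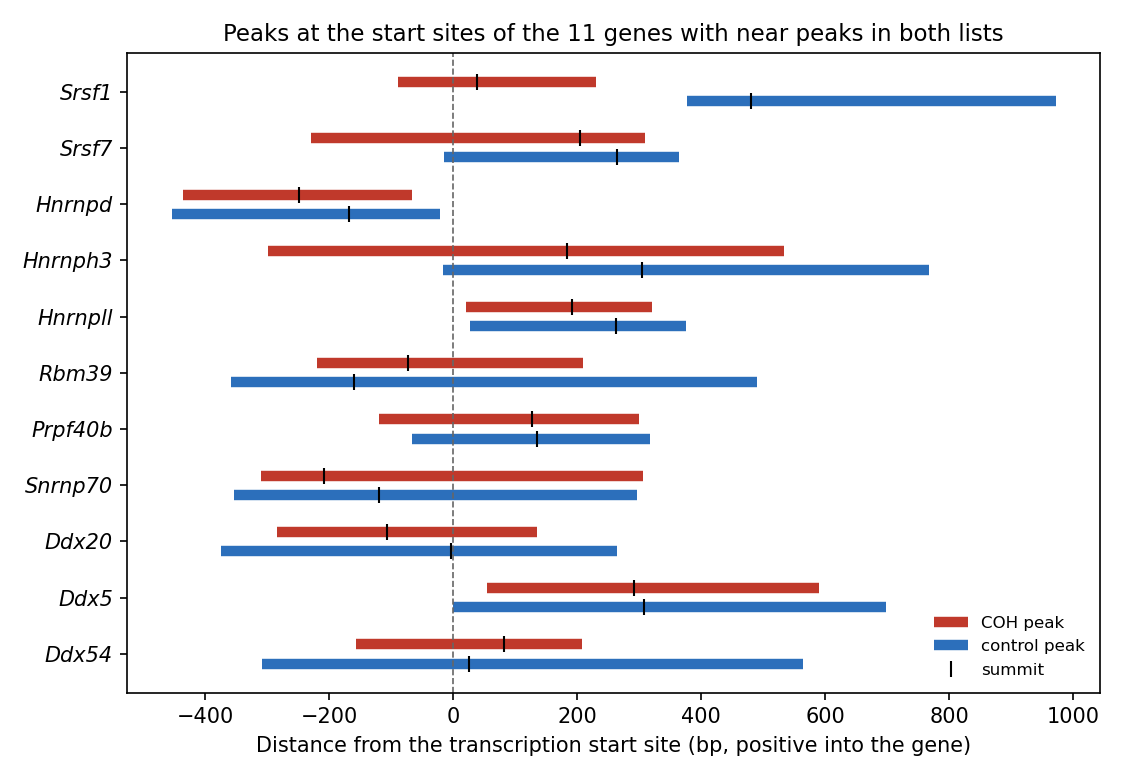
Extent of each peak and its summit relative to the TSS (bp, positive into the gene) for the 11 genes with a peak within 1000 bp in both lists, COH above control. The peaks overlap for 10 of the 11 and lie 146 bp apart at Srsf1.

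By gene name 3 helicase genes were in the COH list only. The other 3 of the 6 with a COH peak were also in the control list, beside 65.5% of all protein-coding genes with a COH peak. Ddx42, a helicase associated with the U2 snRNP, had a COH promoter peak with a fold of 7.46 at a pileup of 23. That peak overlapped a control peak by 374 bp, the whole of it, but the control peak (pileup 30, fold 7.30) was assigned to Ccdc47, the gene that starts on the opposite strand. Ddx42 therefore was not a site without a control peak. Ddx31, a nucleolar helicase, had a COH promoter peak with a fold of 7.72 at a pileup of 17, and the nearest control peak, of Tsc1, lay 198986 bp away. Ddx41, a spliceosome-associated helicase that also senses DNA, had a COH peak, at percentile 5.67 of its list by fold, with a fold of 3.92 at a pileup of 11, and the nearest control peak lay 90408 bp away. Ddx31, Ddx41, Rbm17 and Srsf1 thus were the members whose COH peak had no overlap with a control peak.

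Control peaks without a COH peak marked 6 helicase genes. Of the 9 with a control peak, 3 were also in the COH list, beside 32.7% of all protein-coding genes with a control peak. Ddx59, a gene of ciliary signalling, had a fold of 7.75 at a pileup of 19, and Ddx50, a nucleolar helicase, a fold of 7.63 at a pileup of 29. The fold of both lay above that of most control members. Dhx29 (5.43, pileup 13), which helps ribosomes scan structured leaders, Ddx17 (5.25, pileup 18), the paralog of Ddx5, and Ddx3x (4.86, pileup 11), a translation factor encoded on chromosome X, had promoter peaks. Ddx3x has a close copy, Ddx3y, so the assignment of its reads is uncertain. The Dhx32 peak (5.09, pileup 18) lay at -28939 bp in an intron of Fank1.

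**Figure D4:**
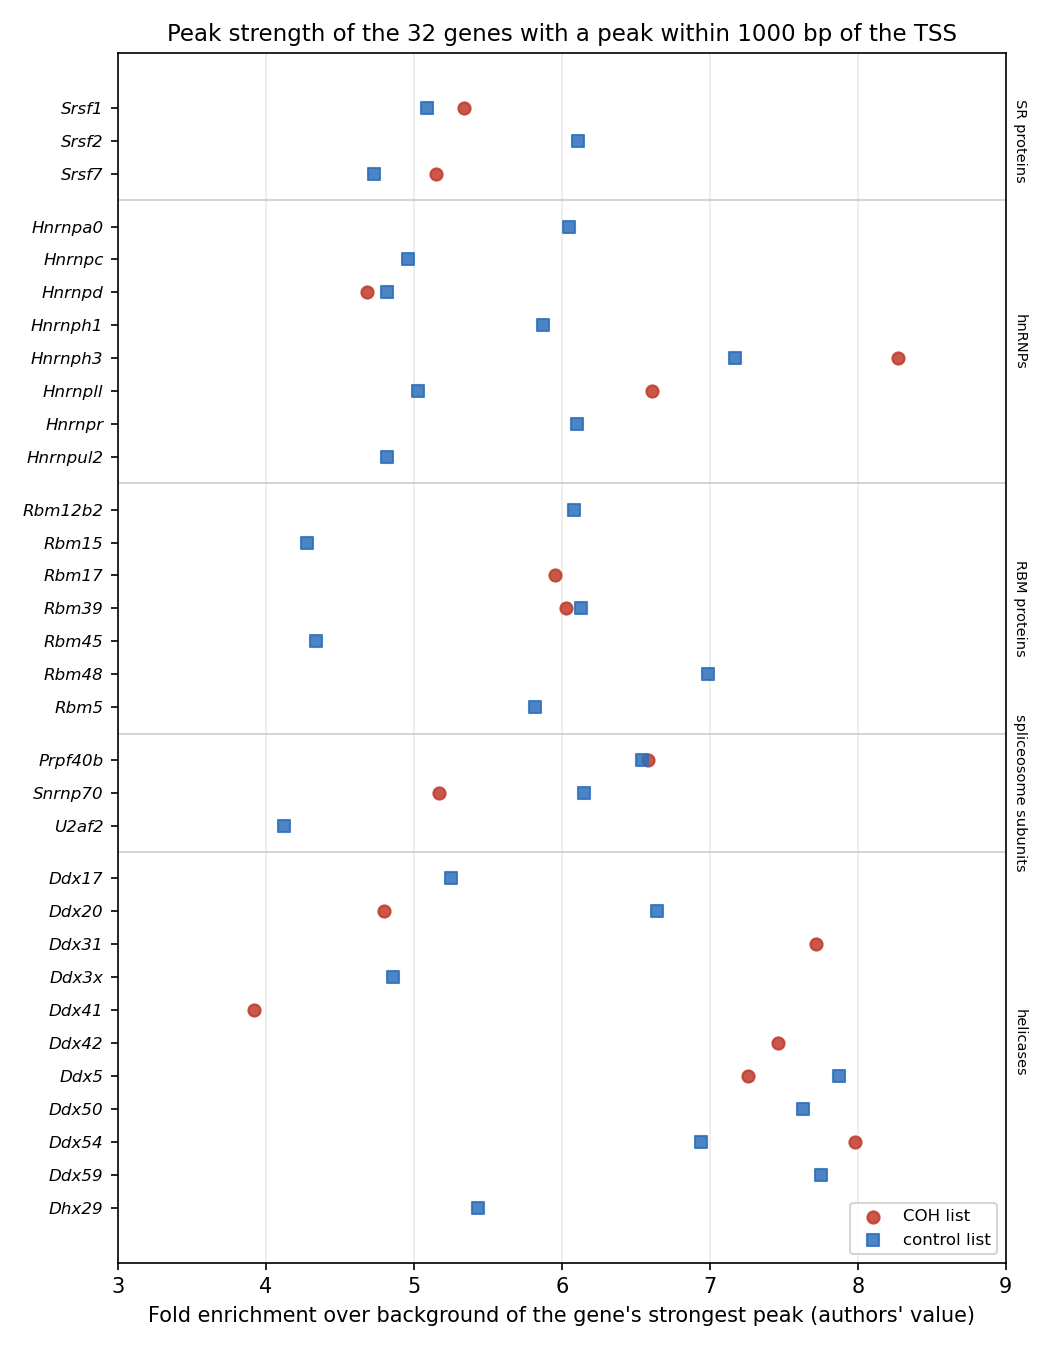
Fold enrichment of the strongest peak of each of the 32 member genes with a peak within 1000 bp of the TSS, by class, in the COH list (circles) and the control list (squares), a score of each peak within its own list. Of these, 11 have both symbols, and the highest values are Hnrnph3 at 8.27 in COH and Ddx5 at 7.87 in control.

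The control members without a COH peak were not confined to weak peaks. Near the TSS, the 18 control member peaks without overlap had a median fold of 5.62 (range 4.12 to 7.75), and the 10 with overlap 6.34 (4.73 to 7.87). The same medians over all control peaks near a TSS were 4.97 without and 5.63 with overlap. In the highest of 5 bins by fold, 4 of 7 control member peaks near the TSS overlapped a COH peak, beside 55.9% of all, and in the lowest bin 0 of 3, beside 17.9%. Over all bins 10 of 28 (35.7%, 18.6 to 55.9) overlapped, beside 31.2% of all. With the bins weighted as in the members, the share over all control peaks near a TSS was 36.4%. For COH members it was 11 of 15 (73.3%, 44.9 to 92.2), beside 67.4% of all and a weighted 77.1%. For 22 of the 24 control-only genes the nearest COH peak of any gene was more than 100 kb away, as it was for 87.0% of all protein-coding genes with a control peak only. The lowest distance was 27092 bp.

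Where peaks of both lists overlapped near the TSS, the summits lay close together, which the choice of overlapping peaks favours. At Srsf1, whose near peaks did not overlap, the summits lay at 38 bp (COH) and 480 bp (control) from the TSS. Over the 11 overlapping member pairs, Ddx42 with Ccdc47 included, the summits were 8 to 122 bp apart, with a median of 72.0 bp, beside 107 bp over all 589 such pairs. Summits lay downstream of the TSS for 10 of 15 COH and 15 of 28 control member peaks, beside 53.4% of all COH peaks and 60.0% of all control peaks near a TSS. Of the shared genes, Hnrnpd, Rbm39, Snrnp70 and Ddx20 had both summits upstream.

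The promoters of members with a peak were rich in CpG, as were those of other genes with a peak. The table held 28 of the 32 members with a peak within 1000 bp in either list, read at their most upstream start. Their median GC content was 62.3%, with a median of 27.0 CpG dinucleotides in 300 bases and an observed-to-expected CpG ratio of 0.927. For all genes with such a peak the ratio was 0.832 in COH and 0.837 in control, and for 99 members without a peak 0.913. Over the whole table of 27025 promoters it was 0.389, and over the 17492 protein-coding genes in it 0.577. GGGCGG was in 20 of the 28 (71.4%), beside 81.0% of genes with a COH peak near the TSS, 79.1% of those with a control peak and 35.9% of all promoters. Members without a peak held it in 61.6%. CCAAT was in 57.1% of the 28, beside 44.4% of members without a peak, 42.2% of genes with a COH peak near the TSS, 43.2% of those with a control peak and 38.0% of all promoters. CCGGAA was in 35.7%, fewer than the 42.4% of members without a peak, and beside 22.1% of genes with a COH peak, 25.6% of those with a control peak and 15.2% of all promoters. TGACGT was in 17.9%, also fewer than the 28.3% of members without a peak, and beside 13.2% (COH), 14.5% (control) and 7.59% (all promoters). CACGTG was in 7.14%, beside 13.1% of members without a peak, 14% (COH), 10.4% (control) and 7.24% (all promoters). TATAAA was in 1 (3.57%), beside 12.1% of members without a peak, 4.61% (COH), 3.55% (control) and 14.2% (all promoters). GCATGCGC was in 3 (10.7%), beside 5.05% of members without a peak, 6.24% (COH), 6.36% (control) and 2.80% (all promoters). TCTCGCG was in 4 (14.3%), beside 9.09% of members without a peak, 9.21% (COH), 6.89% (control) and 2.72% (all promoters). The protein-coding genes alone had higher shares than all promoters for most motifs. Theirs were 46.3% (GGGCGG), 39.2% (CCAAT), 19.1% (CCGGAA) and 8.71% (TGACGT). For the others they were 7.91% (CACGTG), 13.3% (TATAAA), 3.61% (GCATGCGC) and 3.65% (TCTCGCG). None of these differences was tested, and the motifs with 3 or 4 matching members rest on few genes. A match is a description of the letters and not a bound site.

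Of the printed promoters, that of Snrnp70 holds GCATGCGC at 4 sites once overlapping matches of both strands are merged, and that of Rbm39 holds TCTCGCG at 4. Ddx54 and Prpf40b have 5 sites of GGGCGG each, and Srsf7 and Hnrnpd have 3. In Hnrnpd and Rbm39 the lists' summits fall inside the printed window. They lay at -248 bp in COH and -168 bp in control for Hnrnpd, and at -72 bp in COH and -160 bp in control for Rbm39. The Snrnp70 summits lay at -209 bp in COH and -120 bp in control, also inside. Those of Ddx5, at 14 bp in COH and 30 bp in control from the printed start, were inside as well. That start had been chosen as the nearest to the control summit. The Srsf7 summits, at 204 bp in COH and 264 bp in control, lay beyond its downstream end. The starts of Hnrnph3, Prpf40b and Ddx54 may differ between RefSeq and the lists, so their summits were not placed. From the lists' TSS they lay at 183 bp (COH) and 305 bp (control) for Hnrnph3. For Prpf40b they lay at 127 and 135 bp, and for Ddx54 at 82 and 25 bp.

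Splicing genes with other names were counted for comparison. Of 93 such genes, 11 (11.8%, 6.05 to 20.2) had a COH peak, 24 (25.8%, 17.3 to 35.9) a control peak and 9 both, beside the same 5.38%, 10.8% and 3.53%. Sm and LSm proteins had a control peak for 3 of 18 (Snrpb2, Snrpd3 and Snrpe), core spliceosome genes for 3 of 20 (Sf1, Cdc40 and Cdc5l) and SR-related genes and kinases for 3 of 14 (Tra2b, Srrm4 and Son), and none of these 52 genes had a COH peak under its own name. The control peak of Cdc40 overlapped a COH peak that was assigned to another gene. Among 41 other splicing regulators, 11 were in the COH list and 15 in the control list. Qk, Khdrbs2, Msi1, Ewsr1, Matr3 and Pcbp1 had peaks within 1000 bp of the TSS in both lists. Mbnl2 was in both lists through peaks far upstream of its start, at -96371 bp in COH and -96470 bp in control. The difference between these regulators and the other 52 genes was not tested.

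The lists behind these counts differ in length, with 0.556 times as many COH as control peaks. The median pileup was 16.0 in COH and 17.0 in control, the number of reads is unknown, and a library with a control antibody was not analysed here. Marker genes say little on tissue in such lists, since only 5.38% of all protein-coding genes had a COH peak and 10.8% a control peak. At these shares marker sets this small would often hold few or none. Rod markers had a peak for 0 of 12 in either list. Ganglion cell markers had 0 of 10 in COH and 2 in control (Nefm at its start and Isl2 at a distance), and Müller glia markers 2 of 6 in COH (Aqp4 and Sox9, both distal) and 1 in control (Glul).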

How the data were processed

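CUT&Tag libraries from nuclei of COH and control retina were made with a Rac1 antibody and 15 PCR cycles, per the labels' protocols. The submitters' processing notes name cutadapt 1.9.1, Bowtie2 and the build mm9. The peak caller and its background were not given in the sources used here. The signal (a pileup per peak), the fold enrichment (a ratio over background), the -log10 p and q values and the other values (positions, distances to the TSS, annotation and gene) are those deposited by the authors, per the file headers. Headings of the -log10 columns held a spreadsheet error and were read from place and values. Scores describe peaks within a list, with no test. Values of some genes that the counts include are not reported here.

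Genes were matched by symbol or unique synonym to RefSeq GRCm38.p6. Genes were named by class, with full values for those in both lists, the 4 of highest fold per class and list, and those with several or distant peaks. The members and lists were chosen with earlier results of these data known. Counting and overlap steps (Python 3.11.15, pandas 2.3.3, scipy 1.17.1) were tested on simulated data.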

Additional observations from a re-analysis of the deposited data

How the results depend on the processing

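The counts depended on how strong a peak had to be. With a -log10 q of at least 5, 10 member genes had a COH peak and 7 had both, and the COH member peaks within 1000 bp of the TSS made up 100% of 10. With peaks above the median fold of their list, 9 genes had a COH peak, 19 a control peak and 5 both, and the median control fold was 6.13, since weaker peaks were left out. With the control list limited to as many peaks as the COH list holds, 21 genes had a control peak. Among all protein-coding genes, 3.19% had a COH peak with a -log10 q of at least 5, 2.64% a COH peak and 5.28% a control peak above the median fold, and 5.88% a control peak in the shortened list, beside 6.49%, 5.84%, 12.3% and 13.6% of the members. Genes in both lists made up 2.29% of all and 4.55% of the members at that -log10 q, and 1.63% of all and 3.25% of the members above the median fold. Of the other values, 27 moved by less than 1.5 times (counts) or stayed within the 95% interval (shares and medians). The interval of a median, not printed here, was taken from the ranked folds of the peaks. The settings were those above, a reciprocal overlap of 50%, a gap of up to 1000 bp and distance limits of 500, 1000 and 3000 bp. The 5 values without clustered peaks and the COH gene count beside the shortened control list equalled the reported ones, but no member peak is clustered and the COH list was not shortened, so these say nothing of stability. No paired analysis was possible because each group has 1 library. Depth limits the lists, since a site below the caller's threshold is missing from them, and no interval here covers variation between animals.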

Other observations

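Some member genes share their start region with a gene on the opposite strand, and a peak there is assigned to a single gene. Of 132 members in the promoter table, 23 have a protein-coding partner that starts within 1000 bp in the opposite direction. Of these, 16 had no peak of their own near the TSS in either list, and for 2 of the 16 the partner had a peak near its TSS in both lists. Among all protein-coding genes 2.57% had a peak within 1000 bp of the TSS in both lists, and 16 partners are too few to read against that share. Hnrnpa2b1, an hnRNP of RNA transport in neurons, is paired with Cbx3, which encodes the heterochromatin protein HP1 gamma. The Cbx3 peak had a fold of 5.01 at a pileup of 16 in COH, and a fold of 7.33 at a pileup of 25 in control. Hnrnpk, a binder of C-rich sequence, is paired with Rmi1, a subunit of the dissolvasome of DNA repair. The Rmi1 peak had a fold of 5.79 at a pileup of 24 in COH, and a fold of 8.10 at a pileup of 41 in control. Relative to the partner's TSS, the Cbx3 peak spanned -404 to 535 bp in COH and -404 to 105 bp in control. The Rmi1 peak spanned -132 to 473 bp in COH and -271 to 894 bp in control. Ddx42 is the reverse case, with a COH peak under its own name and a control peak under that of Ccdc47. In all, 7 members with a near peak of their own in either list have such a partner. Besides Ddx42 they are Srsf2 (Mfsd11), Hnrnph3 (Pbld2), Ddx5 (Cep95), Ddx54 (Rita1), Ddx31 (Gtf3c4) and Dhx29 (Mtrex). Which gene of each pair these peaks belong to was not tested. Counts by assigned gene therefore depend on which gene of such a pair was chosen.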
